A study of Rattus norvegicus with 6 samples.

Results

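The inflammatory signalling genes described here are 40 rat genes of chemokines, cytokines, their receptors, the NF-kB transcription factors and the inhibitors and targets of those factors. They were listed by name and looked up among the non-control probes through the probes' RefSeq transcript accessions, which named 15284 genes in all. Of the 40, 36 were among these (60 probes), and 4 (Il1r1, Nfkb1, Relb and Tnfaip3) had no probe with a matching accession and were not analysed here. RNA from the renal cortex came from 6 male rats of the Sprague-Dawley stock (Crl:CD(SD)), bought at 5 weeks of age and fed a basal diet, and each animal had 1 single-colour array. The control group received corn oil for 4 weeks (n = 3), and the treated group received 2-amino-4-nitrophenol, an aromatic amine found in dyes for hair, at a dose of 750 mg/kg/day for 4 weeks (n = 3). Each value below is the log2 of the background-subtracted signal of the brightest probe of a gene relative to the 75th percentile of its array, so that 0 is the 75th percentile itself. Such levels can be compared between arrays for a given probe but not between probes. As the whole cortex was assayed, fewer cells of a type and less RNA per cell cannot be told apart.

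Chemokines are small secreted proteins that draw leukocytes along a concentration gradient, and cytokines such as TNF and interleukin 1 act on receptors of tubule, vessel and immune cells. Their receptors release NF-kB, a dimer of Rel proteins, from its inhibitor in the cytoplasm. NF-kB then enters the nucleus and switches on chemokines, adhesion molecules and its own inhibitors, which close the loop. In injured kidney, tubule cells are a known source of these chemokines, while in healthy cortex several members are made constitutively by tubule, stromal or endothelial cells.

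NF-kB binds a short DNA element, the kappa-B site, and the stretches of promoter that hold one are shown because they mark the members that carry this element close to the start of transcription. The windows run 5′ to 3′ on the strand of the gene, with up to 20 bases on either side of the match, and the capitals mark the match to the kappa-B consensus decamer on either strand (adjoining matches overlap). They come from RefSeq promoters of the GRCr8 assembly.
Nfkbia, chr6:78597074-78597123, minus strand: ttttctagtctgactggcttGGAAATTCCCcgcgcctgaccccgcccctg
Nfkb2, chr1:255108334-255108373, plus strand: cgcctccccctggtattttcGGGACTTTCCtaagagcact
Cxcl1, chr14:17479375-17479425, minus strand: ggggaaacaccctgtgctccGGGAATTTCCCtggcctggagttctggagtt
Cxcl2, chr14:17467299-17467349, minus strand: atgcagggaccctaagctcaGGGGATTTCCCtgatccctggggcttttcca
Cxcl10, chr14:15988859-15988908, plus strand: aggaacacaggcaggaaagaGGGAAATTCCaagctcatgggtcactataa
Cxcl11, chr14:15973634-15973683, plus strand: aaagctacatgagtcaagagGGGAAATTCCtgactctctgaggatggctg
Ccl20, chr9:91837050-91837099, plus strand: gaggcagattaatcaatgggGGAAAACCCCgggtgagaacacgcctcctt
Socs3, chr10:103694900-103694949, minus strand: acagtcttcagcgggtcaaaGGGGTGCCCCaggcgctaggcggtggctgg
Il6, chr4:5894614-5894663, minus strand: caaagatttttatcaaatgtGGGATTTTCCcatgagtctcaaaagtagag

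Of the 40 members, 32 had a promoter in that table, from 250 bases before to 50 bases after the start. The other 8 (Ccl2, Ccl5, Il10, Il34, Csf1, Relb, Birc3 and Cebpd) had none there and were not searched. Of the 32 searched, 12 (37.5%) held at least 1 match to the kappa-B consensus decamer, against 4.18% of all 33469 promoters of the same length. The other 3 members with a match, Tnfaip3, Il1r1 and Nfkb1, had no probe. The list was made to include targets and inhibitors of NF-kB. A share above that of all promoters is thus no separate finding about the members. A match is a description of the letters and not of binding.

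**Figure D1:**
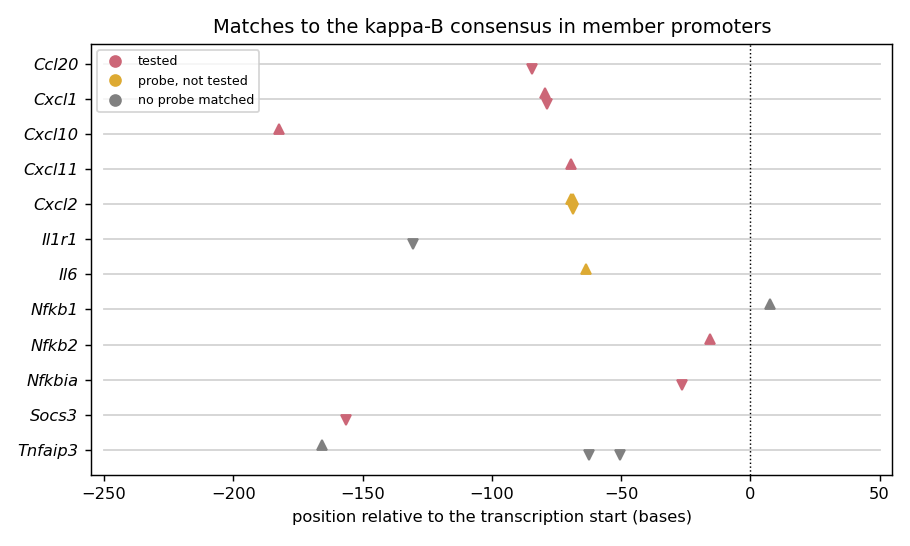
Matches to the kappa-B consensus in the promoters of 12 members, by distance in bases from the start of transcription. Triangles that point up are matches on the strand of the gene and those that point down on the opposite strand; colours give whether the gene was tested, had a probe that was not tested, or had no matching probe. The matches of 11 members lie before the start, and that of Nfkb1 lies after it.

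No member passed the test between dosed and control rats. Of the 36 members with a probe, 32 were tested, since in 1 group or both every array was well above background (31 of the 32 were so on all 6 arrays), and 0 had an adjusted p under 0.05 (limma, Benjamini-Hochberg adjustment over 11748 genes). Over all genes tested, 0.0255% were called at that threshold. The lowest adjusted p among the members was 0.136. At an unadjusted p under 0.05, 4 members were higher (Ccl5, Cxcl12, Il34 and Tnfrsf1a) and 1 was lower (Stat3), that is 5 of 32, where 14.3% of all genes tested were higher and 7.29% lower by the same rule. The arrays of the groups did not overlap for 3 higher members (Ccl5, Il34 and Tnfrsf1a) and 2 lower members (Cxcl9 and Stat3), against 20.1% and 10.1% of all genes. The shares of the members are thus no greater than those of all genes tested. With arrays weighted by their quality, 2 members were called (Ccl5 and Cxcl12, both higher), where the same fit called 11.3% of all genes higher and 5.83% lower. Scaling to 7 spike-in probes moved the median of all genes by -0.32, and the changes became 0.032 for Ccl5, 0.19 for Cxcl12, 0.079 for Il34, 0.017 for Tnfrsf1a and -0.52 for Stat3, so that the directions below are relative to the bulk of the genes.

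The log2 changes of the 32 members ran from -0.26 (Cxcl11) to 0.52 (Ccl20), with a median of 0.08, and 20 of them (62.5%) were positive. Over all genes tested the median was 0.04 and 57.4% were positive. The members' median standard error was 0.16, against 0.12 over all genes. The 7 tested members with a kappa-B match had a median log2 change of 0.18 (range -0.26 to 0.52), and the 19 tested members whose promoter held none had a median of 0.04 (range -0.21 to 0.51). None of the 7 was among the members at an unadjusted p under 0.05. Of those members, Ccl5 and Il34 had no promoter to search and so could not be among the 7.

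**Figure D2:**
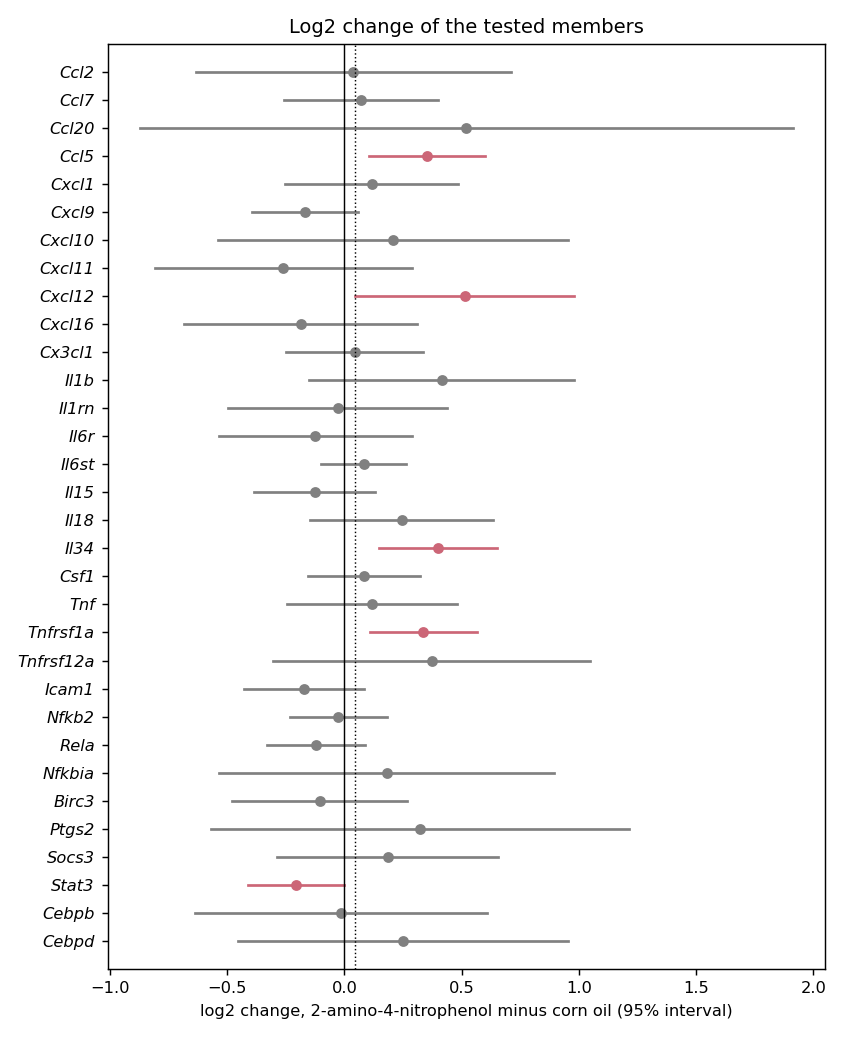
Log2 change of each of the 32 tested members, 2-amino-4-nitrophenol minus corn oil, with its 95% interval from limma. Coloured points have an unadjusted p under 0.05 and the dotted line is the median of all genes tested (0.04); the intervals of 27 members include 0, and that of Ccl20 is the widest.

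Among the CC chemokines, Ccl5 (RANTES), which draws T cells and monocytes, was higher on every treated array. Its levels were 1.49, 1.31 and 1.62 on corn oil replicates 1, 2 and 3 and 1.81, 1.78 and 1.88 on treated replicates 1, 2 and 3. The groups did not overlap, and the difference was 0.35 ± 0.10 (SE, n = 3 per group; 1.28-fold; limma adjusted p = 0.152), with 0.33 from its other probe. T cells are a known source of Ccl5, and all 6 T cell markers measured (Cd3d, Cd3e, Cd3g, Cd2, Cd4 and Cd8a) had a negative change, with a median of -0.47. The summed level of these markers, relative to the 75th percentile, ranged from 1.23 to 2.39 in control rats and from 1.21 to 1.42 in dosed rats. Their part in the Ccl5 values was not tested.

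Ccl2 (MCP-1), the main monocyte attractant, did not separate the groups. Its levels were -0.86, -1.42 and -1.34 on the corn oil arrays and -1.41, -0.60 and -1.50 on the treated arrays. Corn oil replicate 1 and treated replicate 2 were the high arrays, and the difference was 0.04, with a 95% interval from -0.63 to 0.71. Ccl7 (MCP-3), a relative of Ccl2, lay between -5.38 and -4.94 on its brightest probe, close to background, and was not well above background on treated replicate 2. Ccl20, which attracts cells bearing the receptor CCR6, had the largest difference and the largest error, 0.52 ± 0.57 (1.43-fold; adjusted p = 0.621). Its levels were -1.92, -1.82 and -0.31 on the corn oil arrays and -0.52, -0.19 and -1.78 on the treated arrays. Without corn oil replicate 3 the difference was 1.04, and with array weights it was -0.36. Each group held high and low animals, more than 1 log2 unit apart, and its other probe ordered the animals alike into high (-1.07, -1.27 and -0.82) and low (-2.62, -2.32 and -2.60).

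The homeostatic chemokine Cxcl12 (SDF-1), which stromal cells make and which retains cells bearing CXCR4, was brighter in 2 of the 3 treated animals. Its levels were 3.73, 3.38 and 3.36 on the corn oil arrays and 3.65, 4.30 and 4.06 on the treated arrays. Treated replicate 1 lay within the corn oil range, and the difference was 0.51 ± 0.19 (1.43-fold; adjusted p = 0.206). The other 2 probes, of which 1 carries the accession of another transcript, gave 0.53 and 0.34. Of the 6 fibroblast and vessel wall markers (Col1a1, Col1a2, Col3a1, Pdgfrb, Dcn and Acta2), 5 had a positive change (median 0.07), and their summed level ranged from 21.1 to 24.0 in control rats and was 17.1, 34.4 and 26.0 on treated replicates 1, 2 and 3. The treated arrays thus stood in the same order for these markers as for Cxcl12. This order was not particular to them, as the summed macrophage markers, Nfkbia and Cebpd (all below) had it too. Treated replicate 2 held the highest value for 35.8% of all genes tested. The part of fibroblasts and vessel wall cells in the Cxcl12 values was not tested.

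The chemokines that interferon gamma induces, Cxcl9, Cxcl10 and Cxcl11, which share the receptor CXCR3, had changes of unlike sign, none of which passed the test. Cxcl9 was -4.35, -4.43 and -4.17 on the corn oil arrays and -4.51, -4.44 and -4.49 on the treated arrays. The groups did not overlap, though the nearest arrays were close, and the difference was -0.17 ± 0.09 (adjusted p = 0.338); with normexp background correction it was 0.16, of the opposite sign. Cxcl10 had a difference of 0.21 (95% interval -0.54 to 0.95) and Cxcl11 of -0.26 (-0.81 to 0.29). For Cxcl11, treated replicate 2 was low at -1.11, against -0.36 and -0.37 on the other treated arrays and -0.54 to -0.18 on the corn oil arrays, and without it the difference was -0.014.

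None of the remaining chemokines separated the groups. Cxcl1, a neutrophil attractant, lay between -4.47 and -3.95 over all 6 arrays, with a difference of 0.12 (-0.25 to 0.48). Its near relative Cxcl2 was on no array well above background with either of its 2 probes. The membrane-bound chemokines Cx3cl1 (fractalkine) and Cxcl16 were well above background on all 6 arrays. Cx3cl1 had a difference of 0.04 (-0.25 to 0.33), and Cxcl16 of -0.19 (-0.68 to 0.31), which was -0.024 without treated replicate 1 and -0.37 without treated replicate 2.

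Among the cytokines, Il34, a second ligand of the CSF1 receptor that tubule cells make and that maintains macrophages, had the lowest adjusted p of all members. Its levels were 4.19, 4.21 and 4.45 on the corn oil arrays and 4.78, 4.64 and 4.63 on the treated arrays. Every treated array was above every corn oil array, and the difference was 0.40 ± 0.10 (1.32-fold; adjusted p = 0.136). Csf1, the other ligand of that receptor, had a difference of 0.08 ± 0.10 (adjusted p = 0.642), so that the groups were not told apart, within an interval from -0.15 to 0.32. The gene of the receptor itself, Csf1r, had a negative change of -0.50 ± 0.21 (limma adjusted p = 0.242), with overlapping groups. Its levels were -1.01, -1.47 and -1.07 on the corn oil arrays and -2.08, -1.38 and -1.59 on the treated arrays. Of the 10 macrophage markers listed, Csf1r among them, 9 were tested and 6 of these had a positive change, with a median of 0.03. Their summed level ranged from 22.4 to 23.1 in control rats and was 21.3, 34.0 and 26.1 on treated replicates 1, 2 and 3, and Cd163 was on no array well above background. The part of macrophages in the Il34 values was not tested.

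**Figure D3:**
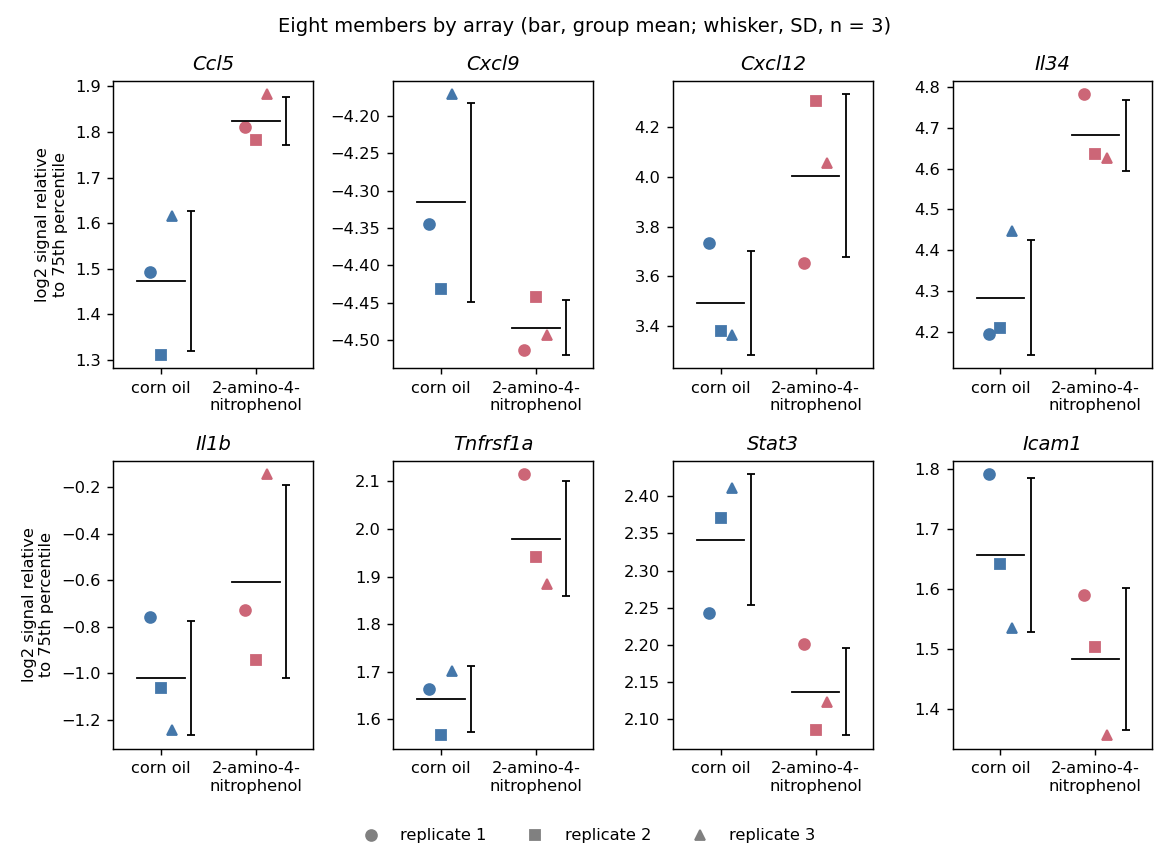
Level of 8 members on each array, as log2 signal relative to the 75th percentile of the array; symbols give the replicate, bars the group mean and whiskers the SD (n = 3). The y axis differs between panels and does not start at 0. Ccl5, Il34 and Tnfrsf1a lie higher and Cxcl9 and Stat3 lower on all treated arrays, while Cxcl12, Il1b and Icam1 overlap between the groups.

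The proinflammatory cytokines gave no common picture. Il1b (interleukin 1 beta) was -0.76, -1.06 and -1.24 on the corn oil arrays and -0.73, -0.94 and -0.15 on the treated arrays. Treated replicate 3 stood above the rest, and the difference was 0.41 ± 0.23 (1.33-fold; adjusted p = 0.340; 0.37 from the other probe), or 0.18 without that array. Neutrophil markers were also highest on that array. Of the 5 listed, 3 were tested (S100a8, S100a9 and Csf3r), with a summed level of 0.464 to 0.642 in control rats and 0.965, 0.784 and 1.82 on treated replicates 1, 2 and 3, while Elane was on no array well above background. S100a8 and S100a9 each had a change of 1.01, and Csf3r had one of 0.0006. Csf3r was lowest on treated replicate 2 (-5.30) and highest on treated replicate 3 (-4.32). All 3 erythroid markers (Hbb, Ahsp and Alas2) were higher on every treated array, with a median change of 1.43 and a summed level of 139 to 200 in control rats and 382, 257 and 355 on treated replicates 1, 2 and 3. The part of neutrophils or of blood in the Il1b and Ccl5 values was not tested. Tnf had a difference of 0.12 (-0.24 to 0.48) and Il1rn, the natural antagonist of interleukin 1, of -0.03 (-0.50 to 0.44). For both genes the other probe was on no array well above background. Il18, which renal epithelium stores as a precursor, had 0.24 (-0.15 to 0.64), and Il15, a survival factor for lymphocytes and tubule cells, had -0.13 (-0.38 to 0.13).

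Interleukins 1 alpha, 6 and 10 were at the limit of detection. Il6 was on no array well above background. Il10, an anti-inflammatory cytokine, was well above background on corn oil replicate 1 only. Il1a, an alarmin released by dying cells, was well above background on treated replicate 2 only, at -3.36, against -8.12 to -7.78 in control rats and -6.52 and -7.36 on the other treated arrays. Its second probe was on no array well above background, treated replicate 2 included (-7.31).

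Of the receptors, Tnfrsf1a, the main signalling receptor of TNF, was higher on every treated array. Its levels were 1.66, 1.57 and 1.70 on the corn oil arrays and 2.11, 1.94 and 1.88 on the treated arrays. The groups did not overlap, and the difference was 0.34 ± 0.09 (1.26-fold; adjusted p = 0.147). Tnfrsf12a, the receptor of TWEAK, had 0.37 ± 0.28, with 0.34 from its other probe, and overlapping groups; without treated replicate 3 the difference was 0.16 and without corn oil replicate 2 it was 0.61. Il6r and Il6st (gp130), the subunits of the interleukin 6 receptor, had -0.12 (-0.54 to 0.29) and 0.08 (-0.10 to 0.26). Il6st was among the steadiest members, with levels from 3.52 to 3.67 over all 6 arrays, although its 4 probes gave changes from -0.31 to 0.18. Icam1, the endothelial and tubular adhesion molecule that leukocytes bind, had -0.17 ± 0.11 (adjusted p = 0.374).

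None of the members among the NF-kB factors and their regulators had an unadjusted p under 0.05 (limma). Rela (p65), the transactivating subunit, ran from 1.15 to 1.34 in control rats and from 1.08 to 1.20 in dosed rats, a difference of -0.12 ± 0.09 (adjusted p = 0.440). Nfkb2 (p100), the precursor of p52 in the non-canonical pathway, had -0.03, with the narrow interval from -0.23 to 0.18. Nfkbia (I-kappa-B alpha), both the inhibitor of NF-kB and its early target, with the kappa-B match shown above, was 1.49, 2.04 and 1.94 on the corn oil arrays and 1.45, 2.54 and 2.02 on the treated arrays. Treated replicate 2 was highest and replicate 1 of either group lowest, and the difference was 0.18 ± 0.29 (adjusted p = 0.742). Birc3 (cIAP2), an anti-apoptotic target, had -0.11 (-0.48 to 0.27). Ptgs2 (COX-2), the inducible prostaglandin synthase, lay between -5.37 and -3.98, with a difference of 0.32 (-0.57 to 1.21).

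Stat3, the transcription factor downstream of gp130, was the 1 member lower at an unadjusted p under 0.05. Its levels were 2.24, 2.37 and 2.41 on the corn oil arrays and 2.20, 2.09 and 2.12 on the treated arrays. The groups did not overlap, and the difference was -0.21 ± 0.08 (0.868-fold; adjusted p = 0.231), with -0.42 from its dimmer probe. Socs3, the inhibitor that STAT3 induces, had 0.18 ± 0.19 (adjusted p = 0.606) from its brightest probe and -0.13 from the other. The acute phase factors Cebpb and Cebpd had -0.01 (-0.64 to 0.61) and 0.25 (-0.46 to 0.95). Single arrays set the size of the changes of Cebpd, Socs3 and Cebpb. Cebpd had 0.051 without treated replicate 2 and 0.55 without treated replicate 1, and Socs3 had 0.0038 without treated replicate 3. Cebpb had -0.25 without corn oil replicate 1 and 0.22 without corn oil replicate 3.

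Of 13 members with at least 2 probes above the filter, 9 had the same sign on each (Ccl20, Ccl5, Cxcl12, Il1b, Csf1, Tnfrsf12a, Rela, Stat3 and Cebpb) and 4 did not (Cx3cl1, Il6st, Nfkb2 and Socs3).

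Several members varied more between animals of a group than the groups differed. The median SD within groups was 0.22 for the members and 0.15 over all genes, and 7 of the 32 members were in the top 10% of all genes by this measure (Ccl20, Ptgs2, Cxcl10, Nfkbia, Cebpd, Tnfrsf12a and Ccl2). Nfkbia, Cebpb and Cebpd each had their lowest values on replicate 1 of either group. For Cebpd these were 0.61 (corn oil) and 0.56 (treated), while the other control rats had 1.21 and 0.92 and the other dosed rats 1.56 and 1.37. For Cebpb they were 1.94 and 2.15, while no other array was under 2.42. Same-numbered arrays did not deviate together (correlations of 0.006, -0.05 and -0.032 for replicates 1, 2 and 3). The order of these genes is thus no sign that animals of a number were linked. The share of all genes with this order was not counted.

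**Figure D4:**
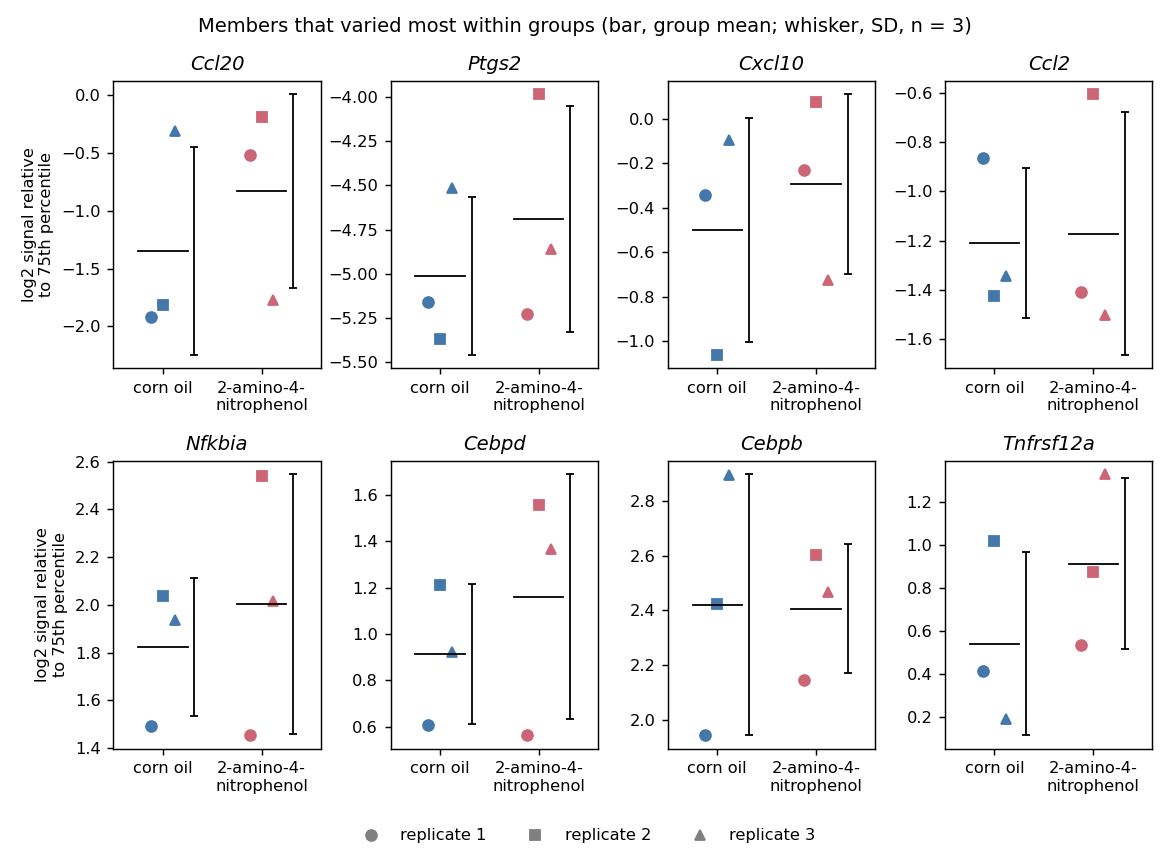
Level of 8 members with a large spread within groups on each array, as log2 signal relative to the 75th percentile of the array; symbols give the replicate, bars the group mean and whiskers the SD (n = 3). The y axis differs between panels and does not start at 0. For Ccl20 each group holds high and low animals, and for Nfkbia, Cebpd and Cebpb the circles (replicate 1) are lowest in each group.

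Ccl20, Cxcl10 and Ptgs2 were highest on treated replicate 2 and corn oil replicate 3. Cebpb also had its highest values on these arrays (2.60 and 2.90). On treated replicate 1, Ccl20 was high (-0.52), while Ptgs2 was low (-5.23). Cxcl10 was highest on treated replicate 2 (0.08) and corn oil replicate 3 (-0.09) and lowest on corn oil replicate 2 (-1.06). Ptgs2 had its highest values, -3.98 and -4.51, on the same arrays, as Ccl20 did with -0.19 and -0.31. Treated replicate 2 held the highest value for 10 of the 32 members (31.2%) and for 35.8% of all genes tested, so this share was not greater for the members. Corn oil replicate 2, the only array on its slide, held the lowest value for 9 members (28.1%), against 22.3% of all genes.

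Of 90 other genes of cytokine and NF-kB signalling, 76 had a probe and 69 were tested. None was called after adjustment, while at an unadjusted p under 0.05 there were 6 higher and 3 lower genes of 69, against the 14.3% and 7.29% of all genes above. Their median log2 change was 0.05. The 3 with the lowest p were higher on all treated arrays with their brightest probes. Ikbkg (NEMO), the regulatory subunit of the kinase that marks I-kappa-B for destruction, was -5.25, -5.38 and -5.41 on the corn oil arrays and -4.72, -4.44 and -4.55 on the treated arrays, a difference of 0.77 ± 0.10 (adjusted p = 0.0799). Its signal was about as dim as that of the Ccl7 probe used (-5.38 to -4.94), which lay close to background. Bcl3, a nuclear partner of p50 and p52, had 0.55 ± 0.13, and Irf1, an interferon response factor that is also an NF-kB target, 0.48 ± 0.12 (each adjusted p = 0.130). The dimmer probe of Irf1 did not separate the groups (-2.65 to -2.36 in control rats and -2.45 to -2.29 in dosed rats). Of the 69, 8 were higher and 5 lower with groups that did not overlap, against 20.1% and 10.1% of all genes. The kinases had a median of -0.10 over 9 genes and held 4 of the 5 lower genes and 1 (Ikbkg) of the 8 higher. At an unadjusted p under 0.05 (limma), 2 kinases were lower and 1 higher. The other lower kinases, Jak2 and Map3k14, each had a small change of -0.10 (unadjusted p = 0.23 and 0.21, limma). The kinases were not tested as a set.

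Before scaling, the 75th percentile of the signal ranged from 743 to 852 in control rats and from 564 to 685 in dosed rats, with 68.1% to 70.9% and 61.6% to 66.3% of probes well above background. All 5 proximal tubule markers listed (Slc34a1, Slc5a2, Lrp2, Cubn and Slc22a6) were measured, as the label renal cortex implies. With 3 arrays in a group, their number sets how precise each value is.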

How the data were processed

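Per the file headers, spots were read with Agilent Feature Extraction 10.7.1.1; the submitters' processing notes name version 10.7. The deposited intensity is the processed signal on a linear scale, from which the scanner software had taken background and spatial trend, per the file headers. The authors also deposited a table of ratio values, the same signal over the array's 75th percentile. Within each group its columns match scanner files of other replicate numbers, and the scanner files' numbers are used here.

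Probes flagged as outliers (64) were left out, and 40894 of 61657 non-control probes were kept. Genes were named through RefSeq accessions (27460 probes), and the brightest kept probe stood for a gene. The test was limma's moderated fit (lmFit, eBayes; version 3.58.1 under R 4.3.3; 2.21 prior and 4 residual degrees of freedom), which was also tested on simulated data. Intervals are 95%. Alternatives were normexp (offset 50), quantile, median and spike-in (7 probes) scaling, the authors' table, other filters, blocks, weights, probe means and leaving out each array. The members and lists were chosen with earlier results of these data known. All members are named. Of the other signalling genes, the 3 with the lowest p are named, and so is Lif, which was chosen after its values were seen.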

Additional observations from a re-analysis of the deposited data

Results flagged for a closer look

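A total of 3 probes that stood for no gene in the comparison had a signal well above background on 1 treated array and more than 1 log2 unit above the highest corn oil array. The dimmer probe of Ccl7 was at -2.51 on treated replicate 1, against -6.02 to -5.57 on the corn oil arrays and -5.42 and -5.74 on the other treated arrays; on that array the brightest Ccl7 probe was at -4.94, its highest value, with -5.38 to -5.06 on the other arrays. The brightest probe of Il1a, left out by the filter on dim probes, was at -3.36 on treated replicate 2, where the other probe was at -7.31. The dimmer probe of Ptgs2 was at -4.81 on treated replicate 1 and at -5.19, not well above background, on treated replicate 2, against -8.29 to -7.86 on the corn oil arrays and -7.65 on treated replicate 3. On treated replicates 1 and 2 the Ptgs2 probe used was at -5.23, its second lowest value, and at -3.98, its highest.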

How the results depend on the processing

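No member was called under any alternative except array weights, where 2 were (Ccl5, adjusted p = 0.0487, and Cxcl12, adjusted p = 0.0488), with 11.3% of all genes called higher and 5.83% lower. Of the 32 members, 12 kept the sign of their change under all alternatives, and among these are the 5 at an unadjusted p under 0.05. The members' median log2 change was 0.03 to 0.12 when single arrays were left out and -0.24 with spike-in scaling, where the all-gene median moved by -0.32. The count of genes called over the whole array, 3, was 56 after normexp correction, 9 after spike-in scaling, 69 with trend and robust settings, 2010 with array weights and 132 at an adjusted p under 0.1. It was 0 with no filter on dim probes, with the slide as a block and with the mean over probes (3496, 1764 and 2443 genes at an unadjusted p under 0.05, limma). Corn oil replicate 2 was alone on its slide, so the slide block is the same fit as leaving out that array. It cannot tell a slide effect from that animal. The count was 0 to 70 when single arrays were left out. The cause of these unlike counts was not tested. With the replicate number as a block the count was 0 (2121 genes at an unadjusted p under 0.05), and same-numbered arrays did not deviate together (correlations of 0.006, -0.05 and -0.032).

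Signs reversed as follows. After normexp correction the changes were 0.16 (Cxcl9), 0.050 (Il1rn), 0.12 (Il6r), 0.053 (Nfkb2), 0.041 (Birc3) and 0.031 (Cebpb). After quantile normalization they were -0.17 (Cx3cl1), 0.0075 (Il1rn) and -0.075 (Il6st), and after median scaling 0.0029 (Il1rn), 0.0047 (Nfkb2) and 0.017 (Cebpb). After spike-in scaling they were -0.28 (Ccl2), -0.25 (Ccl7), -0.20 (Cxcl1), -0.11 (Cxcl10), -0.28 (Cx3cl1), -0.24 (Il6st), -0.075 (Il18), -0.24 (Csf1), -0.20 (Tnf), -0.14 (Nfkbia), -0.14 (Socs3) and -0.071 (Cebpd). With the slide as a block, the same fit as without corn oil replicate 2, they were -0.069 (Ccl2), -0.076 (Cxcl10) and -0.036 (Cx3cl1). With the mean over probes they were -0.057 (Il6st) and 0.11 (Nfkb2). With array weights they were -0.19 (Ccl2), -0.050 (Ccl7), -0.36 (Ccl20), -0.22 (Cxcl10) and 0.15 (Il1rn). When single arrays were left out, the changes ran from -0.24 to 0.044 (Birc3), -0.25 to 0.21 (Ccl2), -0.024 to 0.17 (Ccl7), -0.25 to 0.22 (Cebpb), -0.036 to 0.16 (Cx3cl1), -0.016 to 0.24 (Cxcl1), -0.076 to 0.42 (Cxcl10), -0.21 to 0.089 (Il1rn), -0.074 to 0.018 (Nfkb2), -0.089 to 0.46 (Nfkbia) and -0.030 to 0.59 (Ptgs2). Without a change of sign, leaving out single arrays also moved by over 1.5 times, among others, Tnf (0.036 to 0.26), Il18 (0.12 to 0.34), Il6r (-0.25 to -0.0001), Il15 (-0.23 to -0.066) and Csf1 (0.021 to 0.15).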

Other observations

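Lif, a cytokine of the interleukin 6 family that signals through gp130 and STAT3, was chosen here after its values were seen. Its level was -3.49, -3.58 and -3.45 on the corn oil arrays and -0.77, -0.72 and -3.37 on treated replicates 1, 2 and 3. Both high arrays were more than 2 log2 units above every corn oil array, while treated replicate 3 lay just above them. The difference was 1.89 ± 0.71 (limma, n = 3 per group, adjusted p = 0.204), and the gene had 1 probe.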
